A study of Mus musculus with 6 samples.

Results

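Pericytes and vascular smooth muscle cells, together called mural cells, were described here in single-cell RNA libraries of mouse retina. They were chosen by their own RNA. A barcode, the droplet label that stands for 1 cell, was kept when it had at least 500 detected genes and at most 20% of its molecules from mitochondrial genes. A kept barcode was counted as mural when at least 3 of 8 markers (Rgs5, Kcnj8, Pdgfrb, Acta2, Myh11, Tagln, Cspg4 and Higd1b) were detected and the endothelial junction genes Cldn5 and Cdh5 were both at 0. Of 38995 kept barcodes, 111 met the rule, which is 0.285%. The levels of these 8 markers and 2 junction genes are therefore described below without a test.

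The study compared oxygen-induced retinopathy (OIR), a model of vessel loss and regrowth, with untreated retina. OIR pups breathed 75% oxygen from postnatal day (P) 7 to P12 and then room air for 5 days, and control pups stayed in room air. Retinas of both groups were taken at P17, with 3 samples per group and 2 mice pooled in each sample. The labels name no strain and no genetic change for either group, and they call the source retinal endothelial cells, but the suspension was a hyaluronidase and DNase I digest of whole retina, and 10 rod photoreceptor markers made up between 19503 and 49123 CPM of the RNA outside the mural barcodes. RNA was counted with droplet 3′ chemistry as unique molecular identifiers (UMIs), each standing for 1 captured RNA molecule, and levels are given as counts per 1000000 UMIs (CPM) of the barcodes summed. The OIR libraries held 37872383, 24615436 and 25061712 UMIs and the control libraries 42606878, 19702233 and 15788524, in replicate order, which is the order used throughout.

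Pericytes lie within the basement membrane of capillaries, and smooth muscle cells wrap arterioles and larger venules. Both are recruited and maintained by endothelial PDGF-B acting on the receptor encoded by Pdgfrb, and the retina is known for its dense pericyte cover. Smooth muscle cells contract through actin, myosin and calponin-like proteins (Acta2, Myh11, Tagln), whereas capillary pericytes in the mature retina are known for an ATP-sensitive potassium channel built from the products of Kcnj8 and Abcc9.

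The mural barcodes were spread unevenly. The OIR samples gave 30, 4 and 1, and the control samples gave 65, 6 and 5, so that 95 of the 111 came from the replicate 1 sample of each group and 58.6% from control replicate 1 alone. In OIR replicate 3 the single mural barcode held 4 of the 8 markers (18 UMIs of Rgs5, 15 of Higd1b, 7 of Cspg4 and 1 of Pdgfrb), and every value given for that sample is the value of 1 barcode. Any 2 libraries shared between 9 and 34 barcode sequences, 0.113 to 0.372% of the smaller library.

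Mural barcodes of OIR replicates 1 and 2 held more RNA than those of the control samples. Median UMIs per mural barcode were 35461, 20015 and 10474 in OIR and 7973, 8836.5 and 11384 in control, so the ranges of the sample medians overlapped, and the difference gave p = 0.2 (2-sided exact permutation test, 3 samples against 3, smallest possible p 0.1; chosen after the values were seen). Median detected genes were 5789.5, 4531.5 and 3493 against 2937, 3094 and 3234, with no overlap (p = 0.1, exact permutation test). The median mitochondrial share of UMIs was 5.84, 6.20 and 2.75% in OIR and 7.41, 6.26 and 7.53% in control, also without overlap (p = 0.1, exact permutation test), and the part of either measure in the differences below was not tested. The remaining barcodes did not follow the groups, with median UMIs of 3995, 2399 and 2022 in OIR and 4890, 1959.5 and 1450 in control (p = 0.9, exact permutation test). Within OIR replicate 1 the mural barcodes ran from 4313 to 107266 UMIs. The barcodes at both ends held more UMIs of Mueller glia markers than of mural markers (141 against 11, and 2100 against 7). Of the 30 in that sample, 24 had more than 5000 detected genes, the upper limit the study set on its cells. Over all samples, 25 mural barcodes exceeded that limit, all of them from OIR.

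**Figure D1:**
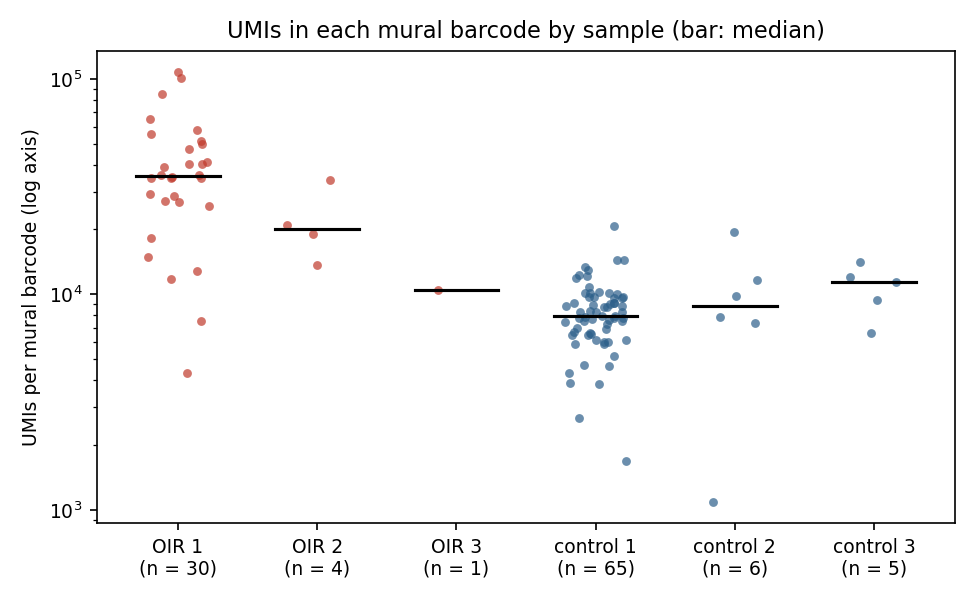
UMIs of every mural barcode (log axis) in each of the 6 samples. Points are barcodes and horizontal bars are sample medians. Most barcodes of OIR replicate 1 lie above 20000 UMIs (24 of 30), a level that 1 of 76 control barcodes reached.

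RNA of other retinal cells was also present in some members. In 15 of the 111, 6 in OIR and 9 in control, the UMIs of 9 Mueller glia, 8 astrocyte or 10 rod markers outnumbered those of the 8 mural markers. The 6 in OIR held a median of 9.5 mural marker UMIs and 635.5 Mueller glia marker UMIs. The 9 in control held a median of 94 mural marker, 8 Mueller glia marker and 162 rod marker UMIs. All are counted as mural by the rule, although the markers of most of the 6 in OIR go against that name. The source of this RNA was not tested. At the edge of the rule, 7 members held exactly 3 of the markers. Just outside it, 102 barcodes held exactly 2, with a median of 2 or 3 mural marker UMIs per sample, and 75 of these were from OIR. A further 8 barcodes held 3 or more markers but also Cldn5 or Cdh5.

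The defining markers were present in all samples except OIR replicate 3, where Kcnj8, Acta2, Myh11 and Tagln were at 0. Rgs5, a regulator of G-protein signalling, was at 12065, 18380 and 12288 CPM in the control samples and at 5904, 9059 and 1719 CPM in the OIR samples. Higd1b, a mitochondrial protein gene of brain and retinal pericytes, was at 1386, 2099 and 1231 CPM in control and 807, 1656 and 1432 CPM in OIR. Pdgfrb was at 1028, 1119 and 727 CPM in control and 384, 423 and 95.5 CPM in OIR, and Cspg4, the NG2 proteoglycan, was at 318, 560 and 298 CPM in control and 362, 411 and 668 CPM in OIR. The groups did not overlap for Rgs5 and Pdgfrb and overlapped for Higd1b and Cspg4. Kcnj8 (chromosome 6, 142564837 to 142571614, GRCm38), the pore subunit of the potassium channel, was at 615, 839 and 1641 CPM in control and at 311, 286 and 0 CPM in OIR. The contractile markers overlapped between the groups for Acta2 (5867, 1679 and 5333 CPM against 3717, 6249 and 0) and Tagln (5252, 1766 and 4102 against 1240, 4227 and 0). Myh11, smooth muscle myosin, was at 635, 542 and 615 CPM in control and 85.1, 377 and 0 CPM in OIR, without overlap. These are descriptions of genes the rule used, and in such sums a different mix of cells and a different level per cell cannot be told apart.

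In the control samples the members fell into barcodes with Kcnj8 and barcodes with Myh11. A barcode with at least 200 CPM of either gene was counted under the one it held more of, a split made after the values were seen and therefore described without a test. Of 76 control members, 29 were Kcnj8 barcodes (24, 2 and 3 per sample), 37 were Myh11 barcodes (32, 3 and 2) and 10 were neither. Acta2 was at 0 in 26 of the 29 control Kcnj8 barcodes, and its level over their summed RNA was 291, 0 and 0 CPM, where 3 counts correspond to 158 and 109 CPM in the last 2 samples. Every control Myh11 barcode held Acta2, at 9810, 2510 and 10911 CPM. Vtn, which encodes the adhesion protein vitronectin, was at 6553, 5464 and 7732 CPM in the control Kcnj8 barcodes. Rgs5 was high in both kinds, with per-barcode medians of 11413 CPM in the Kcnj8 barcodes and 10207.5 CPM in the Myh11 barcodes over all control samples.

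Every OIR Kcnj8 barcode held Acta2. There were 17 of them, 16 in OIR replicate 1 and 1 in OIR replicate 2, and Acta2 was detected in all 17, against 3 of 29 in control. Its level in their summed RNA was 2405 CPM in OIR replicate 1 and 3577 CPM in OIR replicate 2, and single barcodes ranged from 200.4 to 5442 CPM. Since the OIR barcodes were deeper, each was also thinned at random to 4000 UMIs. Acta2 was then detected in 17 of 17 OIR Kcnj8 barcodes, with a median of 10 UMIs, and in 3 of 27 control ones, with 2 shallower control barcodes left out. The remaining barcodes of the retina, which should lack the gene, held Acta2 at no more than 10.5 CPM in any sample. Kcnj8 itself was at 545 and 739 CPM in these OIR barcodes and at 1767, 2259 and 3210 CPM in the control ones.

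Other genes of the Kcnj8 barcodes differed in level as well. Vtn was at 874 and 1626 CPM in OIR, below all 3 control samples, and the hyaluronan-binding matrix gene Itih5 was at 103 and 207 CPM against 1164, 1524 and 1058. P2ry14, a receptor for UDP-sugars, was at 54.0 and 59.1 CPM against 642, 630.5 and 656.5. In the other direction, the fibronectin gene Fn1 was at 310.3 and 502 CPM against 49.4, 0 and 0, and Postn, which encodes the matrix protein periostin, at 401 and 562 CPM against 32.9, 0 and 0. The cytoskeletal genes Vim (5481 and 3133 CPM against 659, 473 and 1240) and Tpm2 (949.5 and 1330 against 241, 158 and 255) also lay higher in OIR, without overlap. OIR replicate 1 supplied 16 of the 17 barcodes, so library and group cannot be told apart for these levels, and the value of OIR replicate 2 is that of 1 barcode.

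**Figure D2:**
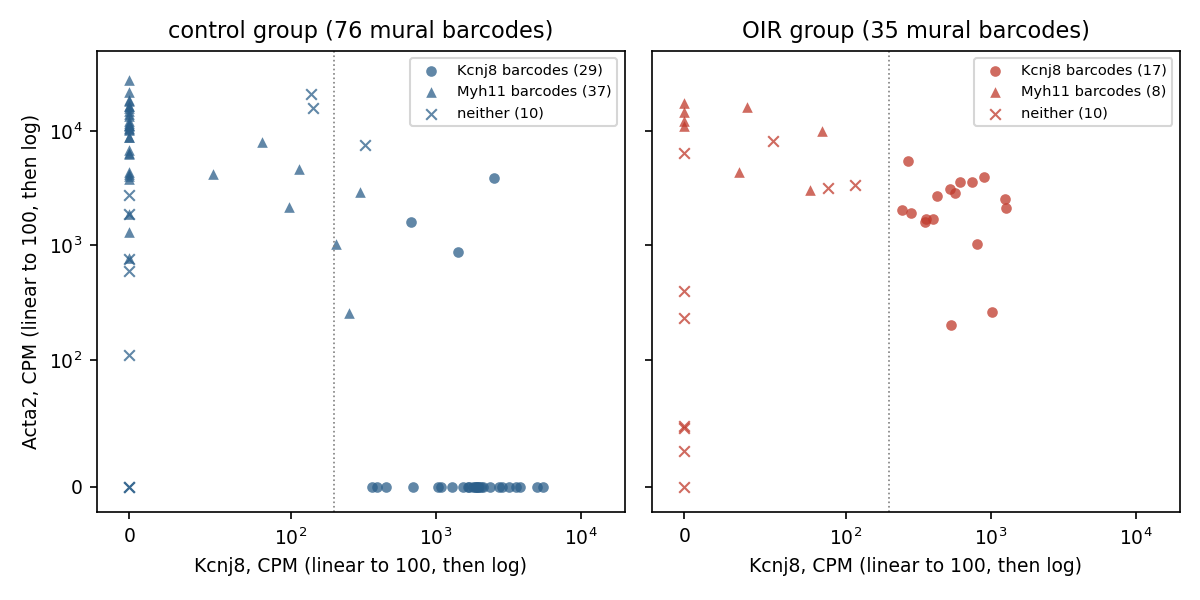
Acta2 against Kcnj8 in every mural barcode, in CPM (axes linear to 100, then log), for the control group (left, 76 barcodes) and the OIR group (right, 35 barcodes). Circles are Kcnj8 barcodes, triangles Myh11 barcodes and crosses neither, and the dotted line marks 200 CPM of Kcnj8. Of the control circles, 26 of 29 lie at 0 CPM of Acta2, and all 17 OIR circles lie above 0.

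The Myh11 barcodes, 37 in control and 8 in OIR, held Acta2 in both groups. Their summed RNA gave 10826 and 17646 CPM in OIR replicates 1 and 2, a range that overlapped the control values of 9810, 2510 and 10911. Myh11 was at 451 and 1723 CPM in OIR and at 1233, 837 and 1259 CPM in control, an overlap. S100a6, a calcium-binding protein gene, was at 3389 and 4490 CPM in the OIR Myh11 barcodes and at 410, 351 and 839 CPM in the control ones. It was likewise at 2357 and 2572 CPM in the OIR Kcnj8 barcodes and at 263, 0 and 219 CPM in the control ones.

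Smooth muscle genes are known to be driven by serum response factor at CArG boxes, sites with a pair of C bases, 6 inner A or T bases and a pair of G bases. The 4 stretches below were taken from RefSeq (GRCm38.p6). They are shown because, among the contractile genes searched, Acta2 and Myl9 (myosin light chain) had such letters in the 250 bases before a RefSeq start. Myh11 and Tagln had no window to search. Capitals mark the box, and each is written on the strand of its gene.
Acta2 box 1, chr19:34255438-34255467, minus strand: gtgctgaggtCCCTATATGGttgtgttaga
Acta2 box 2, chr19:34255388-34255417, minus strand: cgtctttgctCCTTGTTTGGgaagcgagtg
Myl9 box 1, chr2:156775293-156775322, plus strand: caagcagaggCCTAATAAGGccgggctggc
Myl9 box 2, chr2:156775355-156775384, plus strand: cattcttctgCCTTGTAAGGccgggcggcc
The boxes begin 84 and 34 bases before the Acta2 start and 161 and 99 bases before the Myl9 start. The search allowed at most 1 C or G among the 6 inner bases, since the strict form with none was met by Myl9 box 1 only among contractile genes, and the form reads the same way on both strands. Such a box stood in 2 of the 17 contractile genes found in the table (of 23), in 2 of 17 pericyte genes (of 23), and in 11.3% of all 27025 genes (9.98% of their 32851 windows), so the share in contractile genes was close to that of all genes. The windows behind these shares also ran a short way past the start. No match in a window says only that the letters are not there. Myl9 was at 3340, 2378 and 3226 CPM in control and 1544, 3153 and 0 CPM in OIR (log2 difference -0.82, edgeR quasi-likelihood adjusted p = 0.631).

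To place the mural barcodes in the retina, their summed RNA was set against that of all other kept barcodes of the same sample. The rule chose the members along this contrast, so the following is a description. Outside the rule, 1592 of 13076 genes (12.2%) were at least 2-fold higher in mural barcodes at an adjusted p below 0.05, and 3324 (25.4%) were lower, together 37.6%, by edgeR with the sample as a block. The genes furthest above the rest were Aspn (asporin, a small matrix proteoglycan; log2 difference 11.1, SE 0.58), Des (desmin, the intermediate filament of muscle; 10.9, SE 0.55), Cd248 (endosialin, a surface protein of perivascular cells; 10.1, SE 0.52), Col3a1 (9.90, SE 0.57) and Abcc9 (the sulfonylurea receptor of the potassium channel; 9.74, SE 0.54). They were followed by Slc38a11, Twist1, Mgp, Cysltr2, Anpep, Mustn1, Postn, Pla1a, Gja4 and Art3. Furthest below were the photoreceptor genes Pde6h (log2 difference -5.66), Rp1 (-4.87) and Pdc (-4.77), with the host transcripts of miR-124, Mir124-2hg (-4.85) and Mir124a-1hg (-4.70).

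Pericyte, contractile and matrix genes outside the rule were mostly higher than in the rest of the retina, where 12.2% of all genes tested were higher and 25.4% lower along this contrast that the rule used. Of the pericyte genes tested, 16 of 17 were higher, with Notch3, the Notch receptor of mural cells, at 476, 665 and 578 CPM in control and 221, 320 and 0 CPM in OIR. Of the contractile genes, 14 of 16 were higher, among them Des (572, 542 and 391.6 CPM in control; 452, 514 and 859 in OIR) and Cald1, the actin-binding protein caldesmon (2670, 4267 and 3114; 2054, 3016 and 1814). The matrix list was higher in 34 of 35 genes, led in UMIs by Mgp (matrix Gla protein; 11553, 15057 and 9529 CPM in control, 8196, 8442 and 764 in OIR) and Igfbp7 (8243, 9094 and 10573; 6218, 8568 and 2196). Receptors and channels of vascular tone were higher in 11 of 18 and lower in 2. They included Ednra, the endothelin A receptor (220, 350 and 298 CPM in control; 130, 171 and 95.5 in OIR), the soluble guanylate cyclase subunit genes Gucy1a1 and Gucy1b1, which encode the nitric oxide receptor, and the phosphodiesterase gene Pde5a. Genes of PDGF, angiopoietin, TGF-beta and Notch signalling were higher in 20 of 34 and lower in 4. Mural transcription factors were higher in 13 of 16, among them Prrx1 (log2 difference 8.47), Heyl (7.79) and Ebf1 (5.63).

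Mural barcodes were next set against endothelial barcodes. These were first taken as those with at least 3 of 8 endothelial genes and no Kcnj8 or Pdgfrb, but 277 of these 535 had neither Cldn5 nor Cdh5, so the data go against that name for many of them. Against them, 348 of 5242 genes (6.64%) were higher in mural barcodes and 445 (8.49%) lower, again along a contrast the rule used. A stricter rule added after seeing the data (at least 4 of the 8 genes and Cldn5 or Cdh5) left 230 barcodes and 96 genes higher and 137 lower. Higher in mural barcodes than in the first endothelial set were Des (log2 difference 11.8), Cd248 (11.03), Aspn (9.60), Slc38a11 (9.55), Ednra (8.82), Rgs4 (8.66), Prrx1 (8.62) and Il34 (8.25). Il34 encodes a ligand of the microglial CSF1 receptor, and it was at 535, 542 and 354 CPM in control and 157, 183 and 286 CPM in OIR mural barcodes. Of the signalling list, 20 genes were tested in this contrast, 4 were higher and 6 lower, and the median was -0.56. The growth factor gene Pdgfa was higher in mural barcodes (3.81), whereas Tek, the angiopoietin receptor (-4.70), and S1pr1, a sphingosine phosphate receptor (-5.52), were lower. The glucose transporter gene Slc2a1 (-5.42), Ly6e (-5.39) and the lactate transporter gene Slc16a1 (-4.51) were also lower, as were Sox9 (-4.53) and Mgarp (-4.30). Sox9 is also expressed by Mueller glia, and all 9 Mueller glia markers were lower in mural barcodes than in the first endothelial set (median log2 difference -3.44). The part of that RNA in the differences just named was not tested. Summed over the 9 markers, the stricter endothelial set held 966, 166 and 882 CPM in OIR and 2173, 590 and 675 CPM in control, where the mural barcodes held 4198, 6569 and 573 CPM and 2202, 140 and 168 CPM.

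**Figure D3:**
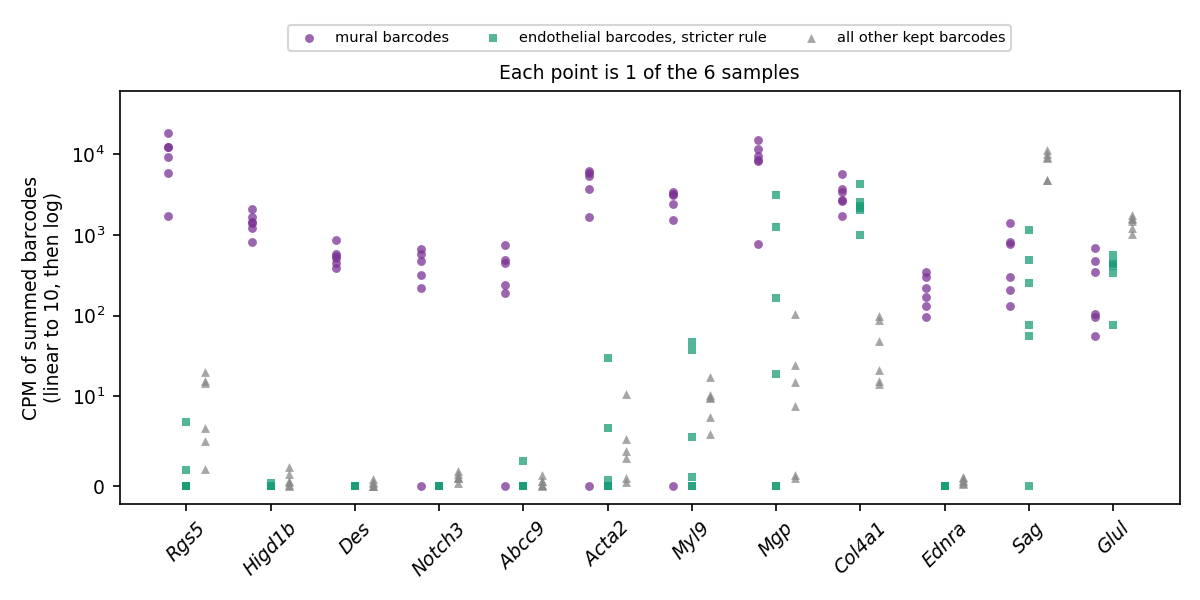
CPM of 12 genes (axis linear to 10, then log) in the summed mural barcodes (circles), the endothelial barcodes of the stricter rule (squares) and all other kept barcodes (triangles), with 1 point per sample. Rgs5, Higd1b, Des, Notch3, Abcc9, Acta2, Myl9 and Ednra lie far above both other classes in nearly all samples, Col4a1 is shared with endothelial barcodes, and the rod gene Sag and the glial gene Glul are highest in the other barcodes. Points of mural barcodes at 0 belong to OIR replicate 3.

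OIR and control mural barcodes were then compared over samples, by summing the UMIs of each sample's members and testing 1177 genes with edgeR's quasi-likelihood test (adjusted p below 0.05 and at least 0.25 on the log2 scale). S100a6 was higher in OIR (0.085% of the genes tested), and Nrip2, Vtn, Olfr558 and Itih5 were lower (0.34%). The calls came from genes outside the rule, and 176 genes had an unadjusted p below 0.05. The median difference of all genes was -0.01, with 578 above 0 and 599 below.

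S100a6 (chromosome 3, 90612882 to 90624181) was at 2151, 3084 and 9452 CPM in OIR and at 522, 227 and 522 CPM in control. All OIR samples lay above all control samples (log2 difference 3.42, SE 0.61, adjusted p = 0.0469). Without OIR replicate 3, which is 1 barcode, S100a6 differed by 2.62 (edgeR adjusted p = 0.00644). In the remaining barcodes it was at 174, 75.5 and 89.6 CPM in OIR and at 26.6, 30.5 and 22.7 CPM in control, and the difference between the 2 effects did not pass the test (log2 1.21, edgeR adjusted p = 0.741).

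Vtn (chromosome 11, 78499091 to 78502324) was at 607, 811 and 668 CPM in OIR and at 2893, 3113 and 3990 CPM in control. The gap between the groups was wider than the spread within either (log2 difference -2.25, SE 0.34, adjusted p = 0.0284). Itih5 (chromosome 2, 10153571 to 10256529) was at 66.8, 137 and 95.5 CPM against 438, 560 and 541 (-2.47, SE 0.42, adjusted p = 0.0406). Nrip2 (chromosome 6, 128399296 to 128416427), which encodes a nuclear receptor interacting protein, was at 20.9, 34.3 and 0 CPM against 210, 175 and 186 (-3.14, SE 0.45, adjusted p = 0.0284). Olfr558 (chromosome 7, 102702215 to 102712064), an olfactory receptor gene also known from vascular smooth muscle, was at 16.7, 45.7 and 0 CPM against 157, 245 and 205 (-3.20, SE 0.52, adjusted p = 0.0341). In OIR replicate 3, 3 counts correspond to 286 CPM, so the zeros of Nrip2 and Olfr558 there were not distinguishable from control levels at this depth.

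The filter on low counts, which asked for at least 138 CPM in 3 samples, bears on these calls. S100a6 and Vtn reached that level in all 6 samples. Nrip2 (25, 3 and 0 UMIs in OIR), Olfr558 (20, 4 and 0) and Itih5 (80, 12 and 1) reached it in the 3 control samples and in no OIR sample, so that they entered the test through the group where they were high. Without the filter the edgeR adjusted p was 0.00227 for Nrip2, 0.00278 for Olfr558, 0.0203 for Itih5 and 0.0116 for S100a6, and Vtn no longer passed (adjusted p = 0.102).

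The next genes by p did not pass and are given as a description. Fn1, Postn and Dkk3 reached the level of the filter in the 3 OIR samples and no control sample, Ppp1r14b in the 3 OIR samples and 1 control sample, and Slc38a11 in the 3 control samples and no OIR sample, so each entered the test through the group where it was high. Fn1 was at 292, 320 and 477 CPM in OIR and at 75.7, 17.5 and 18.6 CPM in control (log2 difference 2.46, adjusted p = 0.0549; 4.23 without control replicate 1). Ppp1r14b, a phosphatase inhibitor gene, was at 473, 491 and 477 CPM against 135, 105 and 168 (1.80, adjusted p = 0.0549). Postn was at 318, 331 and 5633 CPM against 29.5, 35.0 and 0 (6.03, adjusted p = 0.0586). Without OIR replicate 3, which is 1 barcode, its difference was 3.59 (edgeR adjusted p = 0.00633). Dkk3, a secreted Wnt pathway modulator that is also a Mueller glia marker, was at 280, 251 and 286 CPM against 83.1, 17.5 and 18.6 (2.09, adjusted p = 0.0700; 3.96 without control replicate 1). Slc38a11, an amino acid transporter gene, was at 30.05, 57.1 and 95.5 CPM against 199, 297 and 149 (-2.54, adjusted p = 0.0522).

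These counts of calls turned on single libraries and on other choices. Without OIR replicate 3, whose sum is 1 barcode, 28 genes were higher (1.66%) and 35 lower (2.07%) of 1689 tested, and all 5 calls above were kept. Without OIR replicate 1, OIR replicate 2, control replicate 2 or control replicate 3, no gene passed in either direction, and without control replicate 1 there was 1 lower gene and none of the 5. With barcodes over 5000 genes removed, the limit the study set, edgeR called no gene of 879 (85 at an unadjusted p below 0.05). With a term for the samples that hold Xist, control replicates 2 and 3, it called no gene of 1177 (109 at an unadjusted p below 0.05). The log2 differences under the gene limit were 3.43 for S100a6, -1.53 for Vtn and -2.25 for Itih5, with Nrip2 and Olfr558 not tested. With the Xist term they were 3.06 for S100a6, -2.17 for Vtn, -3.32 for Nrip2, -3.01 for Olfr558 and -2.37 for Itih5.

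**Figure D4:**
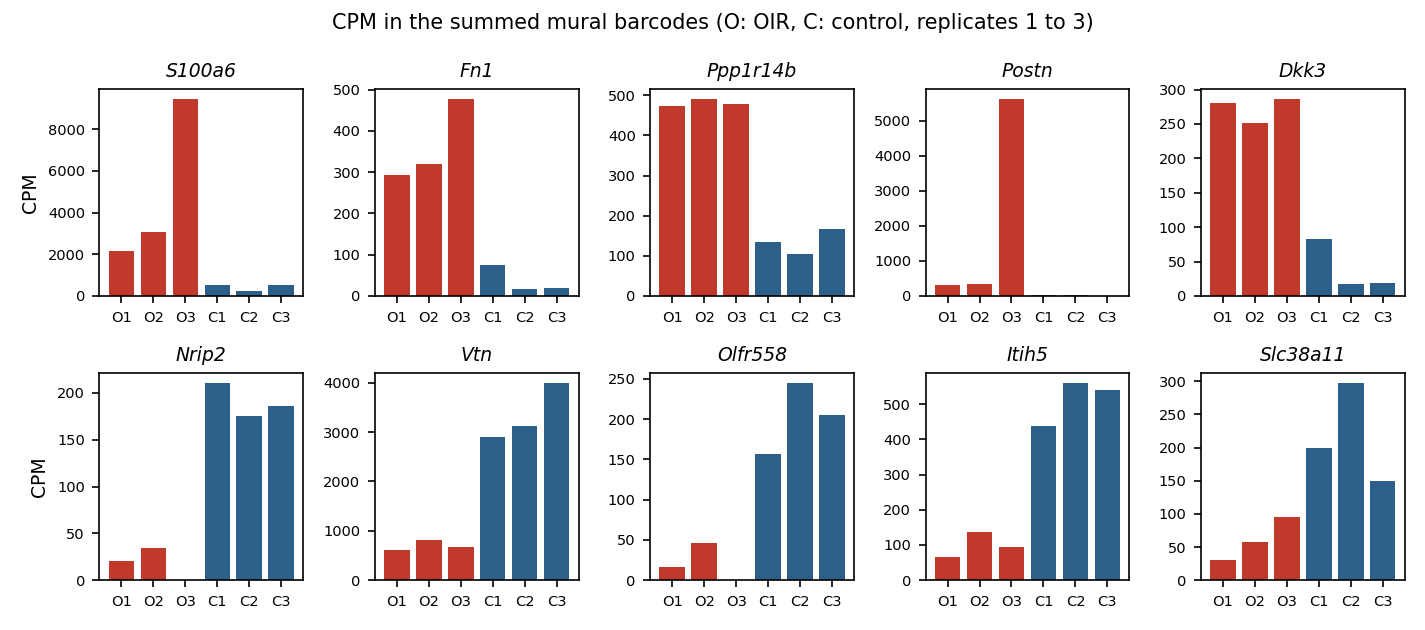
CPM in the summed mural barcodes of each sample (O, OIR; C, control; replicates 1 to 3) for the 5 genes with the lowest p in each direction, higher in OIR above and lower in OIR below. Each bar is 1 sample. In all 10 genes the 3 OIR bars lie on one side of the 3 control bars. The genes were picked by p in these same sums, so that separation is largely set by the choice and is no separate support. S100a6, Nrip2, Vtn, Olfr558 and Itih5 passed the test.

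By gene group, the differences of pericyte genes lay mostly below 0. Of 20 pericyte genes outside the rule 12 were tested, 1 passed (Vtn, lower; 0.34% of all genes were called lower), 11 of 12 had a value below 0 and the median was -1.33, against -0.01 for all genes. Of the 12, 9 reached the level of the filter in all 3 control samples but not in all 3 OIR samples, P2ry14 and Slc38a11 among them, so their sign is in part fixed by the filter and the count is a description. P2ry14 was at 47.6, 45.7 and 286 CPM in OIR and 371, 280 and 466 CPM in control (adjusted p = 0.056), Cox4i2, a hypoxia-linked subunit of cytochrome oxidase, at 204, 320 and 382 against 417, 1364 and 1044 (adjusted p = 0.13), and Abcc9 at 193, 240 and 0 against 482, 752 and 448 (adjusted p = 0.143). Without OIR replicate 3, 3 of 13 pericyte genes passed (P2ry14, Vtn and Slc38a11, all lower), where 2.07% of all genes were called lower. At the filter level of the main test, P2ry14 and Slc38a11 passed in all 3 control samples and in neither OIR replicate 1 nor 2. Their sign is thus in part fixed by the filter here too, and this count is a description.

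Contractile genes outside the rule were tested in 9 of 20 cases, with Nrip2 the single call (lower, as were 0.34% of all genes) and a median of -0.52. The median was -0.32 over 12 genes without OIR replicate 3. Of the 9, 6 reached the filter in all control samples but not in all OIR samples. Cald1 (-0.52, adjusted p = 0.504) and Tpm1 (-0.74, adjusted p = 0.533) did not pass, and Des was nearly level (0.11, SE 0.37, adjusted p = 0.922). All 6 of the 26 vascular tone genes that could be tested were below 0, none passed, and the median was -0.98. Of these 6, 4 reached the filter in all control samples but not in all OIR samples, Abcc9 among them, so here too the filter in part fixes the sign. Gucy1a1 was at 223, 274 and 382 CPM in OIR and at 467, 630 and 653 CPM in control (adjusted p = 0.144), and Ednra gave -0.98 (SE 0.37, adjusted p = 0.239).

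Signalling genes were tested in 7 of 36 cases, none passed, and the median was -0.26, which was -0.55 over 11 genes without OIR replicate 3. Notch3 gave -1.28 (SE 0.46, adjusted p = 0.215) and the VEGF co-receptor gene Nrp1 -1.20 (SE 0.39, adjusted p = 0.172). Nrp1 reached the filter in the 3 control samples and no OIR sample, and Notch3 in 3 control and 2 OIR samples. The filter thus in part fixes their sign, and both values are a description. Of the 7 signalling genes, 3 reached the filter in all control samples but not in all OIR samples, and 2 the other way round. Angpt1, which encodes the ligand by which mural cells act on the endothelial receptor Tek, was too low to test, at 4.17, 22.8 and 95.5 CPM in OIR and 33.2, 35.0 and 74.6 CPM in control. Transcription factors were tested in 9 of 22 cases with none passed and a median of -0.66 (Mef2c passed as lower without OIR replicate 3), and Nr2f2, a factor of veins, was at 216, 183 and 382 CPM in OIR and 478, 472 and 429 CPM in control (adjusted p = 0.179).

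The matrix list of 39 genes gave 20 tested and none passed, with 6 above 0, 14 below and a median of -0.55. Bgn, the proteoglycan biglycan, was at 876, 743 and 1050 CPM in OIR and 432, 280 and 354 CPM in control without overlap (1.23, SE 0.35, adjusted p = 0.137), whereas Col3a1 (-0.78, adjusted p = 0.368) and Lama2 (-1.88, adjusted p = 0.13) were below 0. Sparc was at 3991, 4547 and 4201 CPM against 3934, 4582 and 3618, a difference within the spread of the samples (0.07, SE 0.32). Without OIR replicate 3, 24 genes of the list were tested, and Col18a1, Fn1 and the fibrillin gene Fbn1 passed as higher and Sparcl1 as lower, where 28 and 35 of all 1689 genes passed. The median of the list was then -0.31. Fn1, as said above, had reached the filter in OIR samples only. Which group admitted Col18a1 and Fbn1 to this fit was not examined, so their calls are a description.

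Hypoxia and glycolysis genes were tested in 8 of 28 cases, none passed and the median was 0.22. Gapdh was at 2306, 2102 and 764 CPM in OIR and 1361, 1242 and 1622 CPM in control (0.36, adjusted p = 0.723). Vegfa held 32, 2 and 0 UMIs in OIR mural barcodes and 21, 2 and 0 in control, too few to test. Of the inflammation list 2 of 26 genes could be tested (Nfkbia and Cebpd), with none passed. Of the interferon list 6 of 24 were tested and none passed, the lowest p being that of Ifitm1, at 50.9, 45.7 and 0 CPM against 198, 385 and 186 (-2.35, adjusted p = 0.0522). Ifitm1 reached the filter in the 3 control samples and no OIR sample, so its sign is in part fixed by the filter, and it passed as lower without OIR replicate 3. The filter on low counts left out most genes of these lists, so no count over the tested members stands for the whole list.

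Markers of other cell types moved in part with the groups. Summed over 9 markers, Mueller glia RNA in the mural barcodes was at 4198, 6569 and 573 CPM in OIR and 2202, 140 and 168 CPM in control, with Apoe the gene with most UMIs and all 9 detected. Members with more than 100 of these UMIs held most of the sums, 6 members with 4909 of 5029 UMIs in OIR replicate 1, 1 with 568 of 575 in OIR replicate 2 and 2 with 846 of 1193 in control replicate 1. The median member held 6, 3 and 6 such UMIs in OIR and 3, 1 and 2 in control. The 4 tested of these markers were above 0 with a median of 1.88 and none passed. Rod markers, all 10 detected, summed to 1374, 640 and 1814 CPM against 6589, 3987 and 951, and the 5 tested were below 0 with a median of -2.14 and none passed. Without OIR replicate 3, the fit that gave the pericyte and matrix calls above, the Mueller glia marker Dkk3 passed as higher and the rod marker Gnat1 as lower. Astrocyte markers (7 of 8 detected, led by Gfap, with Igsf1 at 0) summed to 492, 3062 and 477 CPM against 1311, 315 and 186. A single member held 274 of 589 such UMIs in OIR replicate 1, 260 of 268 in OIR replicate 2 and 453 of 710 in control replicate 1. Endothelial markers other than the barred genes summed to between 764 and 1364 CPM in all samples, led by Bsg, with Erg at 0. Fibroblast markers summed to between 382 and 752 CPM, led by Col3a1, with Lum, Dpt, Mfap5 and Pi16 at 0. Microglia and leukocyte markers reached at most 191 CPM, with Ptprc, S100a8, S100a9 and Cd74 at 0. The comparison was repeated without members that held RNA of other types, by 2 separate rules. With the 15 members removed whose glial or rod marker UMIs outnumbered their mural marker UMIs (added after seeing the data), 6 genes were higher and 13 lower of 1003 tested, and S100a6, Vtn, Itih5 and Nrip2 were among them. The other rule removed members with at least 3 markers of the endothelial, fibroblast, microglia and leukocyte, or pigment epithelium list. It did not use the glial or rod lists. The endothelial and fibroblast lists hold Bsg and Col3a1, which led those sums in the mural barcodes. This took out 29 of 30, 3 of 4 and 1 of 1 members in OIR and 47 of 65, 4 of 6 and 4 of 5 in control. The OIR side then rested on 1 barcode in each of replicates 1 and 2, and OIR replicate 3 dropped out. In that fit 22 genes were higher and 31 lower of 232 tested. S100a6 was the only one of the 5 calls tested there (log2 difference 0.33, edgeR adjusted p = 0.869).

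Cell division genes separated OIR replicate 1 from every other sample. The 16 genes of the list, among them Mki67 and Top2a, summed to 5287 CPM in OIR replicate 1, 800 and 1146 CPM in the other OIR samples, and 426, 507 and 597 CPM in control. Mki67, the common marker of dividing cells, or Top2a, the topoisomerase of mitosis, was detected in 16 of 30 mural barcodes of OIR replicate 1 (53.3%). Neither was found in the 4 and 1 barcodes of the other OIR samples or in any of the 76 control barcodes. In the control samples, counts of 0 allow shares of up to 4.62, 50 and 60% of barcodes with a UMI, for counting error only. In OIR replicate 2 the limit was 75%, and the 1 barcode of OIR replicate 3 sets none. The zeros of these 2 samples cannot be told apart from the share in OIR replicate 1. The OIR members held 259 UMIs of Mki67 and 312 of Top2a, and the control members held 0 of either in 652469 UMIs.

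The gap was also present at equal depth. After thinning to 4000 UMIs, 12 of 30 barcodes in OIR replicate 1 still held Mki67 or Top2a, against 0 of 71 control barcodes with enough UMIs. In the remaining kept barcodes the share with either gene was 0.783, 0.196 and 0.186% in OIR and 0.348, 0.148 and 0.185% in control. Of the 16 mural barcodes, 11 were Kcnj8 barcodes, 4 were Myh11 barcodes and 1 was neither. They held 92.6% of the cell division UMIs of that sample's members, and 10 of them lay between 8282 and 17998 CPM, with the next barcode at 3975 CPM. Control barcodes reached at most 1140, 951 and 1493 CPM. Other genes of the list followed, with 474 CPM of Ube2c, a ubiquitin-conjugating enzyme of mitosis, and 323 CPM of the mitotic kinase gene Cdk1 in OIR replicate 1, where Ube2c was at 0 in every other sample. Since 1 library held all these barcodes, library and group cannot be told apart, and no test was run. Tubb5, a tubulin gene, was the only gene of the list that passed the filter on low counts, at 1479, 685 and 1146 CPM in OIR and 253, 350 and 541 CPM in control (log2 1.58, SE 0.42, edgeR adjusted p = 0.112), and it passed as higher without OIR replicate 3.

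**Figure D5:**
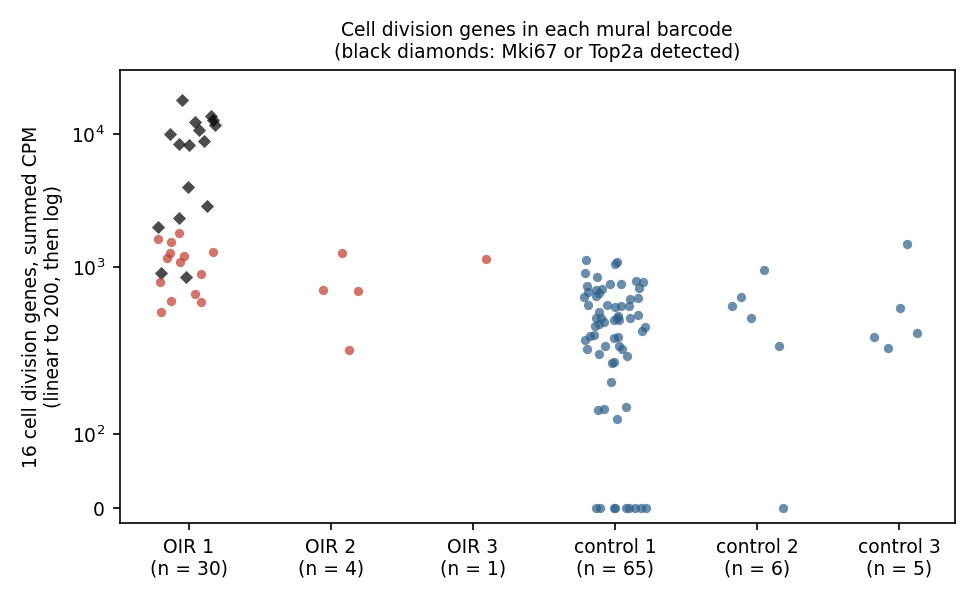
Summed CPM of 16 cell division genes in each mural barcode (axis linear to 200, then log), by sample. Black diamonds are barcodes with at least 1 UMI of Mki67 or Top2a. All 16 diamonds are in OIR replicate 1, and 10 of them lie above 5000 CPM, where no barcode of another sample lies.

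The number of mural barcodes was compared last. Their share of kept barcodes was 0.487, 0.0714 and 0.0133% in OIR and 0.897, 0.111 and 0.0711% in control, with Wilson 95% intervals from 0.341 to 0.694% for OIR replicate 1 and from 0.704 to 1.14% for control replicate 1. The group means of 0.191% ± 0.258 and 0.360% ± 0.466 (SD, n = 3 each) did not differ beyond the spread of the samples (p = 0.6, 2-sided exact permutation test, adjusted over 3 such tests 0.9). Control replicate 1 set the direction, since without it the OIR mean was higher by 0.0997 percentage points. The intervals cover counting error only. Without the members whose glial or rod marker UMIs outnumbered their mural marker UMIs, the shares were 0.406, 0.0535 and 0.0133% in OIR. In control they were then 0.787, 0.0921 and 0.0711%.

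Per 100 endothelial barcodes of the first rule there were 17.6, 8.33 and 2.27 mural barcodes in OIR and 27.1, 60 and 21.7 in control, without overlap (p = 0.1, the smallest that this exact permutation test can give, adjusted 0.3). With the stricter endothelial rule the OIR mean was the higher one, but the samples of the groups overlapped (p = 0.3, exact permutation test). The ratios were 93.8, 200 and 100 in OIR against 36.5, 150 and 38.5 in control, from 32, 2 and 1 against 178, 4 and 13 endothelial barcodes. The ratio therefore gave no direction that held.

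Contractile barcodes, with at least 2 of Acta2, Myh11 and Tagln detected, made up 90, 100 and 0% of mural barcodes in OIR and 64.6, 66.7 and 40% in control. The means were 63.3% ± 55.1 and 57.1% ± 14.8 (SD, n = 3 each), and they are given as a description because the rule used these 3 genes. Thinned to 1000 UMIs per barcode, the shares were 60, 66.7 and 0% against 57.4, 33.3 and 40%. Without the members whose glial or rod marker UMIs outnumbered their mural marker UMIs, they were 92, 100 and 0% against 64.9, 60 and 40%.

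Finally, the OIR difference in mural barcodes was tested against the OIR difference in all other kept barcodes of the same samples, as an interaction in edgeR. No gene of 1177 passed in either direction (0% called), 90 had an unadjusted p below 0.05, and DESeq2 called 3 higher and 10 lower. Vtn was at 367, 381 and 381 CPM in the other barcodes of OIR and 323, 695 and 599 CPM in those of control, and its interaction was -1.82 (edgeR adjusted p = 0.273). For Fn1 the interaction was 2.84 (edgeR adjusted p = 0.252), and for P2ry14 it was -3.21 (edgeR adjusted p = 0.19). A difference seen in the mural sums is thus not shown to be particular to them.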

How the data were processed

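Per the labels and methods, each retina digest was loaded on 10x 3′ v3 chemistry, and the authors counted UMIs per gene and barcode with Cell Ranger (3.1.0 in the file header, mouse build mm10 in the submitters' processing notes; the methods text names a human build, but the deposited genes are mouse). The deposited filtered matrices hold raw counts for 31053 genes and 47631 barcodes. Barcodes were filtered as stated, without the study's upper limit of 5000 genes. No doublet caller was run; 25 members exceeded that limit and 15 held more glial or rod than mural marker UMIs. The members, gene lists and splits were chosen with earlier results of these data known.

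UMIs were summed per sample and class and tested with edgeR 4.0.16 (R 4.3.3; TMM, filterByExpr, quasi-likelihood, Benjamini-Hochberg), with DESeq2 1.42.0 as an alternative. Classes within a sample were blocked by sample. Single values were tested by exact permutation (SciPy 1.17.1, Python 3.11.15). In simulated data for the OIR comparison (1185 genes), 9%, 90.5% and 100% of genes changed 2-, 4- and 16-fold were recovered. Of the genes called there, 25%, 5.24% and 6.54% were false. The genes named for OIR against control were those called plus the lowest p values up to 5 per direction. For classes they were the 15 largest and 5 smallest differences. From the gene lists, members called, lowest in p or highest in CPM were eligible. Samples are separate pools of mice, and p-values measure the spread between sample values. Where a sum holds few barcodes (1 in OIR replicate 3), that spread also holds the spread between single barcodes, and the parts cannot be told apart. Single genes withheld from this text are not reported here. Gene positions are those of the GRCm38 annotation. Alternatives covered the count filter, gene and mitochondrial limits, the marker minimum, thinning, the endothelial rule, left-out samples and a replicate block.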

Additional observations from a re-analysis of the deposited data

How the results depend on the processing

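Counts of called genes for OIR against control (1 higher, 4 lower) moved with most choices. They were 5 and 6 with DESeq2, 142 and 73 without the filter on low counts, 0 and 0 with barcodes over 5000 genes removed, 7 and 15 with at least 4 of the 8 markers, 0 and 0 with a term for samples with Xist, and 22 and 31 of 232 genes after removing members with 3 markers of another type, which took out 88 of 111 members and left 1 barcode in each of 2 OIR samples. With samples left out, the counts ranged from 0 to 28 and from 0 to 35. Choices added after seeing the data gave 6 and 13 (members with more glial or rod than mural marker UMIs removed), 12 and 23 (Kcnj8 barcodes), 1 and 0 (Myh11 barcodes) and 1 and 1 (sums thinned to 50000 UMIs). The 10 genes named kept their sign in every alternative that tested them. S100a6 ranged from 0.33 to 3.79 and Vtn from -2.63 to -1.53. In Myh11 barcodes alone Nrip2 was at -1.60 and Olfr558 at -1.67, and neither passed.

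Under a replicate block the counts were 0 and 0. Deviations of same-numbered samples correlated at -0.197, 0.0418 and -0.00711. Some of these sums hold few barcodes (1 in OIR replicate 3), so the check cannot decide whether the numbers pair the samples. The interaction (0 and 0) gave 3 and 10 with DESeq2, 139 and 68 without the filter, and 0 and 1 with barcodes over 5000 genes removed. It stayed at 0 and 0 with any sample left out and under the replicate block.

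Mural against endothelial counts (348 and 445) were 950 and 1409 without the filter, 166 and 214 with barcodes over 5000 genes removed, 349 and 680 with DESeq2, 96 and 137 with the stricter rule, and from 196 to 438 and from 180 to 644 with a sample left out. Those against other barcodes stayed within 1.5 times throughout, from 1305 to 1591 and from 2686 to 3615 with a sample left out.

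The difference in mural share (-0.169 percentage points) was -0.309 with barcodes over 5000 genes removed and ranged from -0.317 to 0.0997 with a sample left out. The difference in mural barcodes per 100 endothelial barcodes (-26.9) was 7.91 after thinning and 56.3 with the stricter rule, and ranged from -34.1 to -15.0 with a sample left out. That in contractile share (6.24 percentage points) was -1.54 with barcodes over 5000 genes removed and -1.35 after thinning, and ranged from -12.1 to 37.9 with a sample left out (-7.09, -12.1 and -2.31 without OIR replicate 1, OIR replicate 2 and control replicate 3). The causes were not tested. Depth limited OIR replicate 3 most, with 10474 mural UMIs.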

Other observations

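Ribosomal protein genes, taken by symbol after the data were seen, gave differences mostly above 0 between OIR and control mural barcodes. Of 76 tested, 75 lay above 0 with a median log2 difference of 0.58, and none passed in edgeR. Their share of mural UMIs was 15.4, 15.2 and 11.2% in OIR and 8.66, 8.60 and 11.1% in control, and their share in the other kept barcodes was 7.78, 7.01 and 7.15% against 6.78, 5.99 and 5.46%.

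Stress and dissociation genes were uneven within both groups. They summed to 3036, 2867 and 21386 CPM in OIR and 9652, 2501 and 7440 CPM in control, and of 12 tested 4 lay above 0, 8 below and none passed, with a median of -0.75. Without OIR replicate 3, which is 1 barcode, all 14 tested lay below 0 with a median of -1.22, and none passed. Fos was at 4105 CPM in the single barcode of OIR replicate 3, against 170 and 274 CPM in the other OIR samples and 1146, 17.5 and 932 CPM in control. That barcode also had the highest level of Postn, of Gsn, an actin-severing protein gene (3724 CPM), and of Hspb1, a small heat shock protein gene (3342 CPM).

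The sexes of the pools were not matched between groups by their RNA. Xist held 58 and 39 UMIs in the mural barcodes of control replicates 2 and 3 and 0 in those of the other 4 samples, and the Y-linked gene Ddx3y held 65, 5 and 1 UMIs in OIR and 46, 0 and 0 in control. Eif2s3y, Uty and Kdm5d, also on the Y chromosome, were at 0 in control replicates 2 and 3 and present in control replicate 1.

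Markers of pigment epithelium, red blood cells and oligodendrocyte precursors were low in the mural barcodes. Pigment markers reached at most 87.4 CPM, with Rpe65 at 0, and haemoglobin and Alas2 together at most 40.6 CPM. Precursor markers reached 400 CPM in OIR replicate 2, mainly through Pdgfra (331 CPM), with Olig1, Olig2 and Sox10 at 0. All 35 of these UMIs lay in 1 member, which also held 568 UMIs of the Mueller glia markers.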
